A study of Mus musculus with 6 samples.

Results

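The genes described here encode collagens, laminins and other proteins of the extracellular matrix, together with enzymes and a chaperone that modify or fold collagen. The set was given by name and holds 42 genes of the 55487 in the deposited tables, and all 42 were found. They were grouped by role into 11 interstitial collagen genes (fibrillar collagens and those associated with fibrils, beaded filaments or anchoring fibrils), 15 basement membrane genes, 9 genes of matrix glycoproteins and a proteoglycan, and 7 genes of modifying enzymes and a chaperone. RNA was sequenced in 4T-1 cells, an epithelial tumour line of the mouse mammary gland, either wild type (n = 3) or labelled Lyplal1 knockout (n = 3), all without treatment. The sample descriptions carry NC for the libraries titled wild type and sg2 for the knockout libraries. Lyplal1 belongs to the acyl-protein thioesterases, enzymes that take fatty acids off proteins, and the series title links it to depalmitoylation of the DNA sensor cGAS. The labels do not say whether the knockout cells are 1 clone or a pool, nor whether the replicates are separate cultures, so p-values measure the spread between these libraries, which may be technical.

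Collagens are trimers of alpha chains. Fibrillar collagens form the fibres of connective tissue, and type IV collagen forms a network under epithelia. Laminins are trimers of an alpha, a beta and a gamma chain, and nidogens, perlecan and agrin join the laminin and collagen networks into the basement membrane. Inside the cell, lysyl hydroxylases modify collagen chains and the chaperone HSP47 assists their folding, while lysyl oxidases crosslink the secreted fibres. Mammary epithelium normally rests on a basement membrane, and the interstitial matrix of a breast tumour is made largely by fibroblasts.

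Total counts per library lay between 16731209 and 17108975. Lyplal1 RNA was present in both groups, with 76, 73 and 68 counts in wild type against 54, 48 and 58 in knockout, and did not pass the test (log2 fold change -0.28, adjusted p = 0.0886). The labels do not say which part of the gene was changed, and a mutated gene can keep its RNA, so this level does not check the genotype. CPM are counts scaled to library size, and TPM, used below to compare genes, are also divided by gene length. All 7 mammary epithelial markers were detected in every library, and they summed to 3912 to 4024 CPM in wild type against 3074 to 3076 CPM in knockout. Lung epithelial markers, which a mammary line should lack, summed to 1.35 to 1.69 CPM over 9 genes in wild type, with 4 of the 9 at 0 counts, against 42.6, 49.4 and 174.7 CPM in knockout replicates 1, 2 and 3. Knockout replicate 3 was the highest library for 9 of 9 lung and 7 of 7 endothelial markers. The endothelial markers summed to 0.224 to 0.391 CPM in wild type, with 3 of 7 at 0, and to 1.81, 1.69 and 9.12 CPM in knockout replicates 1 to 3. Of the fibroblast markers, Pdgfra stood at 64.6 ± 1.42 CPM in wild type against 170 ± 8.53 CPM in knockout (SD, n = 3 each), and the other 6 together held 1, 2 and 6 counts against 11, 5 and 38. The 6 smooth muscle and pericyte markers summed to 0.893 to 1.18 CPM in wild type against 1.13, 1.25 and 4.34 CPM in knockout replicates 1 to 3. For the 5 red blood cell markers the sums were 0.225 to 0.67 CPM in wild type against 0.688, 0.687 and 1.825 CPM. The 8 leukocyte markers summed to 8.49 to 8.82 CPM in wild type against 466.9, 443.6 and 500.3 CPM in knockout replicates 1 to 3. Nearly all of this was Cd68, at 8.12 ± 0.172 and 462 ± 20.8 CPM (SD, n = 3 each), and the other 7 markers together held 9, 8 and 9 counts in wild type and 34, 52 and 294 in knockout.

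The matrix genes took 1.24% to 1.25% of all counts in wild type and 0.892% to 0.919% in knockout, with no overlap between the groups. A few genes carried most of this RNA, and the 5 with most counts held 52.1% of the set's wild-type counts. Per length, Spp1, the gene of the secreted phosphoprotein osteopontin, was the most abundant at 28.8% of the set's TPM in wild type and 40% in knockout. The other 41 genes together came to 6354.9 TPM in wild type and 4567.2 TPM in knockout (group means). These are bulk libraries, in which fewer cells of a type and less RNA per cell cannot be told apart.

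Each gene was tested between knockout and wild type with edgeR over all 13022 genes that passed a filter on low counts, and a gene is called lower or higher where its adjusted p is under 0.05. Of the 42 matrix genes 23 were lower in knockout, 9 were higher, 2 were not called and 8 were too low to test. Among all tested genes 40.9% were called lower and 41.3% higher, so a call by itself sets a gene little apart in this comparison. Of the 34 tested matrix genes 67.6% were lower and 26.5% higher, with a median log2 fold change of -0.71 against 0.00 for all tested genes. A fall of at least 2-fold was called for 14 of the 34, against 15.6% of all tested genes, and a rise of at least 2-fold for 4 of the 34, against 12.4%. The CPM ranges of the groups did not overlap for 34 of 34, against 83.1% of all tested genes. A gene passes the filter when it is well detected in 1 group alone, so these counts describe the tested genes and not the set. The plot of levels by library shows how little the replicates of a group differ for the abundant genes.

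**Figure D1:**
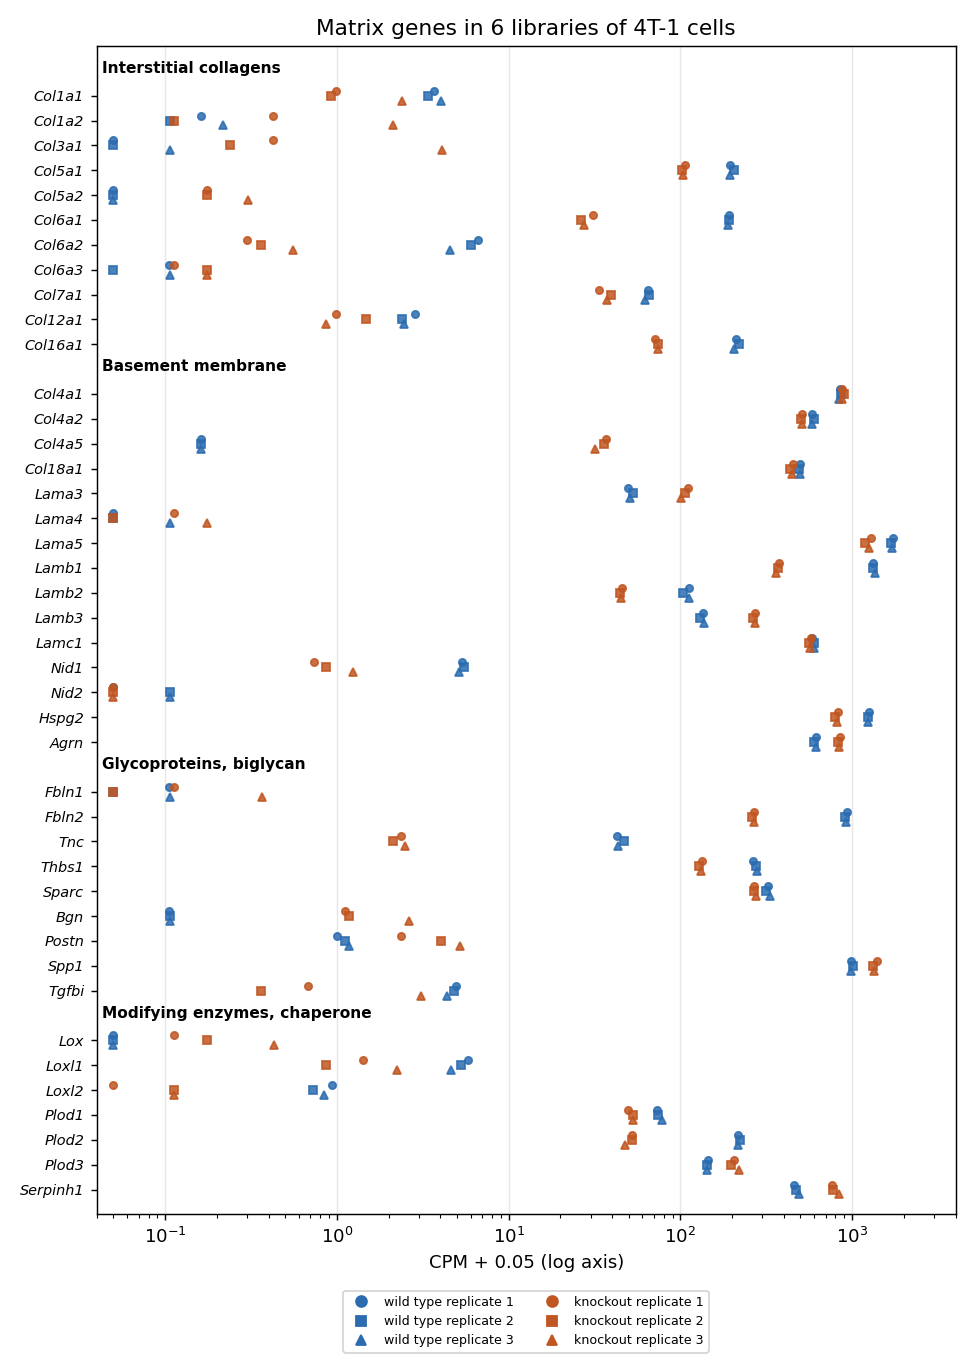
Levels of the 42 matrix genes in each library, in CPM plus an offset of 0.05 on a log axis, with wild type in blue, knockout in orange and 1 symbol per replicate. Genes above about 10 CPM have tight replicates, while several low genes have knockout replicate 3 (orange triangle) well above the other knockout libraries, such as Col3a1 at 4.03 CPM against 0.375 and 0.187.

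How the counts are scaled between libraries moves every gene together. With upper-quartile factors the log2 fold changes moved by -0.13 in the median over all genes, and on the deposited TPM by -0.20. On log2(TPM + 1) 50.7% of all tested genes were called lower and 31.7% higher, so that 38.5% of all calls were higher in knockout, against 50.2% here. The 9 rises among the matrix genes were also 9 under both settings, while the falls numbered 25 under each. Matrix messages are also long: 25 of the 34 tested genes were in the 3 longest of 10 equal classes of all tested genes by exon length. The median log2 fold change of all genes ran from 0.16 in the shortest class to -0.15 in the longest. With offsets that take out this length trend, an alternative chosen after seeing the data, 22 matrix genes were lower and 10 higher.

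**Figure D2:**
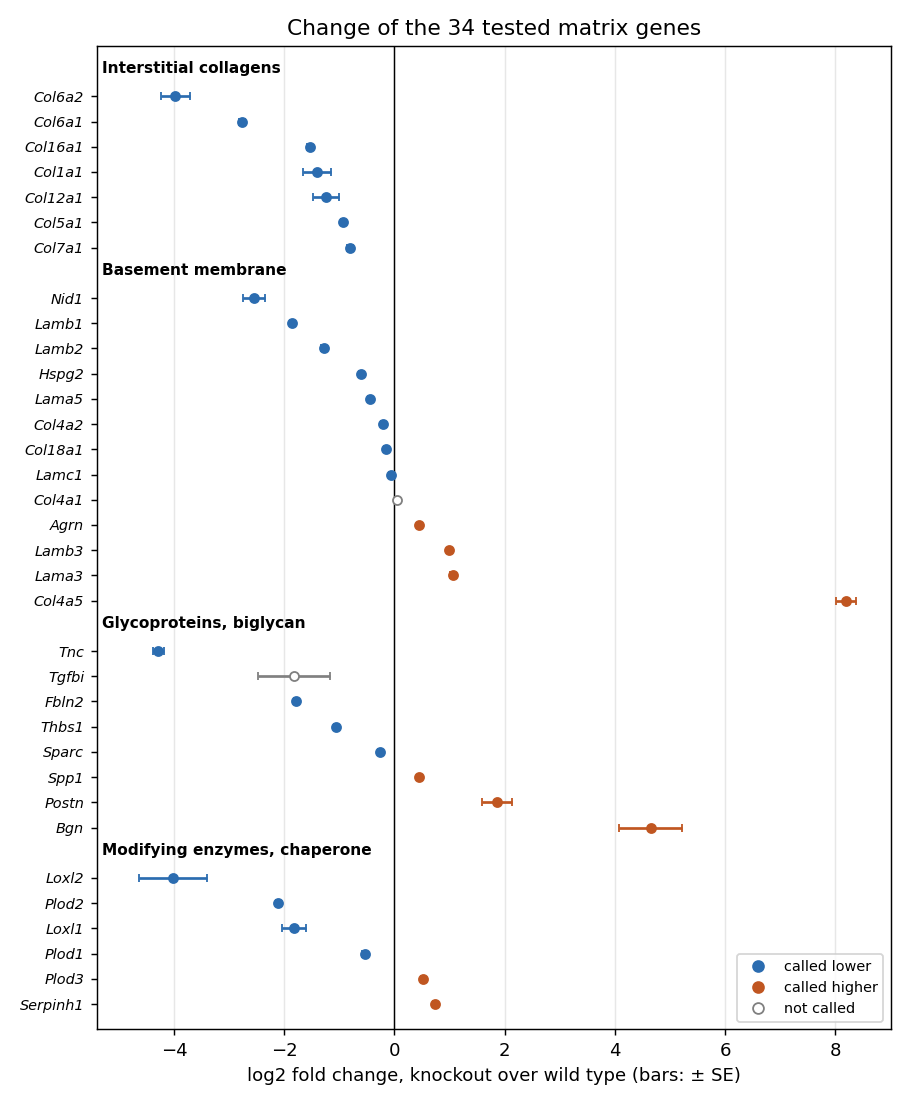
Log2 fold change of the 34 tested matrix genes, knockout over wild type, with bars of 1 standard error (3 libraries a group). All 7 tested interstitial collagen genes lie left of 0, while the basement membrane genes run from -2.55 (Nid1) to 8.19 (Col4a5).

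All interstitial collagen genes that could be tested were lower in knockout cells. Of the 11 genes 7 were called lower, none was called higher and 4 were too low to test. Of all tested genes 40.9% were called lower and 41.3% higher. The median of the 7 was -1.40 on the log2 scale. The 4 untested genes held few counts, and their pooled counts were higher in knockout. In Col3a1 and Col5a2 every knockout library had a higher CPM than every wild-type library. Col6a3 met this only through library scaling, because knockout replicate 1 held 1 count, the same as wild-type replicates 1 and 3. Its ratio of scaled pooled counts, knockout over wild type, was 2.79 (exact 95% interval 0.458 to 29.3), so its direction is open. Col1a2 held 6 counts over wild type and 40 over knockout. Most of this RNA came from chains that accompany fibrils or link them to other structures rather than from the main fibre chains. Col16a1, a collagen associated with fibrils, had 212, 221 and 206 CPM in wild-type replicates 1 to 3 and 71.3, 74.5 and 73.6 CPM in knockout. The knockout libraries were all below the wild-type ones, at a log2 fold change of -1.54 ± 0.04 (SE, adjusted p = 1.53e-22). Col5a1, which encodes a chain that helps start collagen fibrils, went from 196, 205 and 194 CPM to 106, 102 and 104 CPM (log2 fold change -0.93 ± 0.038). Its usual partner chain, Col5a2, had no count in wild type and 2, 2 and 4 counts in knockout. After scaling, the pooled knockout count of Col5a2 was 2.98 times a floor of 3 counts over the wild-type group. Col7a1, the collagen of the anchoring fibrils that fasten epithelia to the tissue below, went from 65.1, 65.4 and 62.2 to 33.7, 39.4 and 37.2 CPM (log2 fold change -0.80 ± 0.055).

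Type VI collagen, which forms beaded filaments, showed the deepest falls of this group. Col6a1 had 192, 193 and 190 CPM in wild type against 31.1, 26.3 and 27.3 CPM in knockout, a fall of 6.79-fold (log2 fold change -2.76 ± 0.049, adjusted p = 4.13e-26). Its partner Col6a2 stood far lower, at 2.91 ± 0.564 TPM in wild type beside 186 ± 2.24 TPM for Col6a1 (SD, n = 3 each). Within a library Col6a2 TPM came to 1.24% to 1.81% of Col6a1 TPM in wild type and 0.423% to 0.970% in knockout. Col6a2 fell as well, from 118, 107 and 80 counts to 4, 5 and 8 (log2 fold change -3.98 ± 0.261). The remaining chain, Col6a3, had no more than 2 counts in any library. Col6a1 and Col6a2 lie on the same strand of chromosome 10 with 85161 bases between them in GENCODE M21 (GRCm38). The promoter window of Col6a1, shown because this gene fell most among the abundant collagens, spans 250 bases before to 50 after the RefSeq start (chr10:76725995-76726294, minus strand, GRCm38.p6). Capitals mark an AP-1 motif (TGANTCA, which reads the same on both strands).
Col6a1: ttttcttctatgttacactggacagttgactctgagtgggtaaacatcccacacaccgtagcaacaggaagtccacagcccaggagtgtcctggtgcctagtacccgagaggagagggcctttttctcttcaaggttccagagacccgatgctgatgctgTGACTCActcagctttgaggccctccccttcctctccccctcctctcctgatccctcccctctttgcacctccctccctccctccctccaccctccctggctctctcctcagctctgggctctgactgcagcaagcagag
The motif was present in this window alone among the 38 windows of matrix genes, and in 7.81% of the 32851 windows of all genes.

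The main chains of connective tissue fibres were close to 0. Col1a1, a chain of type I collagen, had 65, 60 and 71 counts in wild type and 15, 14 and 37 in knockout, or 2.38 ± 0.193 and 0.77 ± 0.444 TPM (SD, n = 3 each). It fell 2.65-fold, and 3.99-fold without knockout replicate 3 (log2 fold change -1.40 ± 0.254 with all libraries). Its partner Col1a2 had 2, 1 and 3 counts in wild type against 6, 1 and 33 in knockout. Col3a1, the chain of type III collagen, had 0, 0 and 1 counts in wild type and 6, 3 and 64 in knockout. Both are high in 1 library only, knockout replicate 3. That library also had the most lung, endothelial, smooth muscle, leukocyte and red blood cell marker RNA, and the most of fibroblast markers besides Pdgfra. The part of such RNA in these counts was not tested. Col12a1, another collagen associated with fibrils, was low too and fell from 50, 42 and 43 counts to 15, 23 and 13 (log2 fold change -1.24 ± 0.235).

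In the basement membrane the picture was mixed. Of 15 genes 8 fell, 4 rose, 1 was not called and 2, Lama4 and Nid2, were too low to test. The median log2 fold change of the 13 tested was -0.16. Of these 61.5% fell and 30.8% rose, beside 40.9% and 41.3% of all tested genes. Several of the falls were small, and the rises included the largest change of the whole set.

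As scaled here, the main chains of type IV collagen differed by less than 1.2-fold. Col4a1 had 854, 865 and 837 CPM in wild type against 873, 896 and 871 CPM in knockout. The ranges just miss each other and the difference was not called (log2 fold change 0.05 ± 0.03, adjusted p = 0.152), and its direction turned with upper-quartile factors (-0.09) and on log2(TPM + 1) (-0.16). Without knockout replicate 3 it was called higher, by 0.06 (adjusted p = 0.0287). Col4a2, whose chain is built into the same trimer, went from 587, 600 and 581 to 513, 502 and 511 CPM. This small fall (log2 fold change -0.21 ± 0.031, adjusted p = 4.53e-07) was not called against a minimum change of 1.2-fold. It was larger with upper-quartile factors (-0.35) and on log2(TPM + 1) (-0.42). Within a library, where scaling plays no part, Col4a2 TPM came to 77.5% to 78.3% of Col4a1 TPM in wild type and 63.2% to 66.2% in knockout. Col18a1, whose protein carries the endostatin fragment, also fell slightly, from 499, 490 and 495 to 450, 435 and 447 CPM (log2 fold change -0.16 ± 0.031). This fall was not called against a minimum change of 1.2-fold either.

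The minor chain Col4a5 (chromosome X, 141475385 to 141689234, GENCODE M21 on GRCm38) was all but absent from wild-type cells. It had 592, 572 and 502 counts in the knockout libraries and 2 in every wild-type library, or 0.112 CPM against 37, 35.7 and 31.6 CPM. The log2 fold change was 8.19 ± 0.182 (SE, adjusted p = 5.27e-24), the largest rise in the set. Col4a6 is its head-to-head neighbour on chromosome X, with 1309 bases between the start sites. Col4a6 had no count in wild type and 18, 8 and 4 counts in knockout, 11.2 times the same floor after scaling. This gene was named after its values were seen. In knockout Col4a5 made up 2.37% to 2.75% of type IV collagen TPM, so nearly all of that RNA was still Col4a1 and Col4a2.

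Col4a1 and Col4a2 are transcribed in opposite directions from a shared promoter, and their gene models overlap by 22 bases at the 5′ ends. Their RefSeq promoter windows share 78 bases (chr8:11312777-11312854). The windows are shown with that of Col4a5 because these 3 genes encode chains of 1 collagen and moved so differently. Capitals mark a GC box (GGGCGG or CCGCCC) or a CCAAT box (CCAAT or ATTGG), both strands searched, and no marked motif overlaps another. Col4a1 is on the minus strand (chr8:11312777-11313076), Col4a2 on the plus strand (chr8:11312555-11312854) and Col4a5 on the plus strand (chrX:141475169-141475468), all in GRCm38.p6.
Col4a1: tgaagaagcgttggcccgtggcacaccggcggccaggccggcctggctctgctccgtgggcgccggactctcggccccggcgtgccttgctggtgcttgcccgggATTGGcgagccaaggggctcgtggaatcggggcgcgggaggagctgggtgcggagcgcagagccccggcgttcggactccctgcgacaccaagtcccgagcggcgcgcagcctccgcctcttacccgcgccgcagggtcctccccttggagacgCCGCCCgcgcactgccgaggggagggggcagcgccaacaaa
Col4a2: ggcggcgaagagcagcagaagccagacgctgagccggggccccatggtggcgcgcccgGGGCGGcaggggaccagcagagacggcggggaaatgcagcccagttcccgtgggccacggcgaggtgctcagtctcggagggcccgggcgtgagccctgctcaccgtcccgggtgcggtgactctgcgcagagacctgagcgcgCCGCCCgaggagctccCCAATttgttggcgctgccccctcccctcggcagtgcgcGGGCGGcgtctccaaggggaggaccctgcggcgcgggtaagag
Col4a5: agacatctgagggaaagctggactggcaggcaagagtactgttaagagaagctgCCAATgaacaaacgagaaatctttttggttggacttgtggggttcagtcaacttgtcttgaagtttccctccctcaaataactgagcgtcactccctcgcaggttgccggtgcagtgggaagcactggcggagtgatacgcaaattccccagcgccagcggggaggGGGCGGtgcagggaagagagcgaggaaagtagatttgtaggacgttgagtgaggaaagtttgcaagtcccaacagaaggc
GC content was 74% for Col4a1, 73.7% for Col4a2 and 52.7% for Col4a5. A GC box was found in 63.2% of the windows of matrix genes and 35.7% of all windows, and a CCAAT box in 31.6% and 37.4%. These are matches of letters and no record of binding. Windows were at hand for 30 of the 42 genes.

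Laminin RNA changed in amount and in make-up. Summed over its genes, alpha chain RNA went from 656 ± 9.9 to 439 ± 17.2 TPM and beta chain RNA from 737 ± 11.5 to 314 ± 7.58 TPM (SD, n = 3 each). On the deposited TPM log2 fold changes shifted by -0.20 in the median over all genes, so these falls include that shift. Lamb1 (chromosome 12, 31265234 to 31329644), the beta chain of the widespread epithelial laminins, had 1331, 1318 and 1360 CPM in wild type against 378, 368 and 360 CPM in knockout. It was the deepest fall among the laminin genes of the set, 3.63-fold (log2 fold change -1.86 ± 0.032, adjusted p = 1.76e-26). Lamb2, an alternative beta chain, fell from 112, 104 and 113 to 45.7, 44.5 and 44.8 CPM (log2 fold change -1.28 ± 0.046). Lamb3, the beta chain of the laminin that anchors epithelial hemidesmosomes, went the other way, from 136, 130 and 137 to 271, 263 and 273 CPM (log2 fold change 1.0 ± 0.036). None of these ranges overlap.

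**Figure D3:**
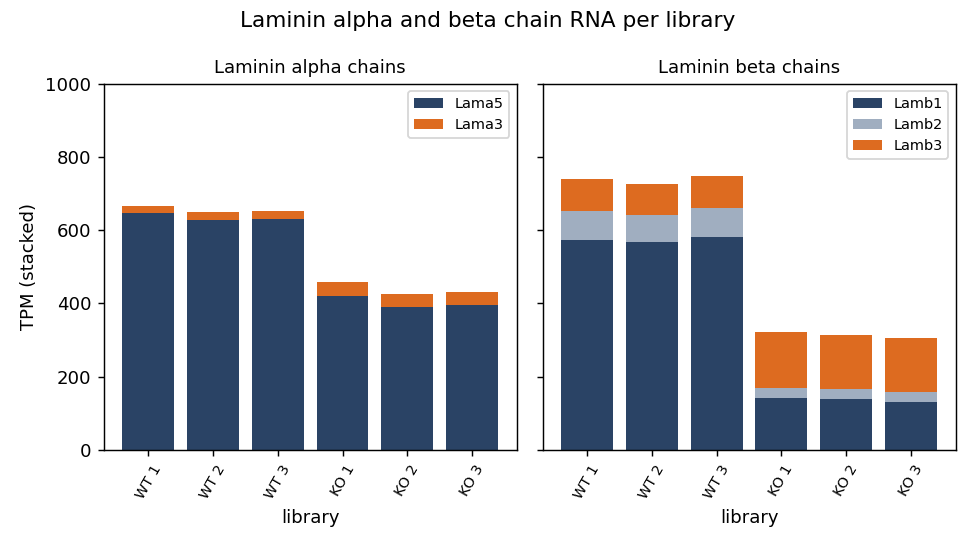
TPM of laminin alpha and beta chains in each library (WT wild type, KO knockout), stacked from 0. Lamb3 (orange, right panel) takes a small part of beta chain RNA in wild type and about as much as Lamb1 (dark blue) in knockout, at 11.8% and 47.7% on average.

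Of beta chain TPM, Lamb1 held 77.5%, 78.4% and 77.7% in wild type against 44%, 44.1% and 42.7% in knockout. The share of Lamb3 moved from 11.9%, 11.6% and 11.8% to 47.3%, 47.2% and 48.6%. Among alpha chains Lama3, the partner of Lamb3, rose from 49.2, 53.1 and 50.6 to 111, 106 and 101 CPM (log2 fold change 1.06 ± 0.047). Lama5, the main alpha chain of adult epithelia, fell from 1726, 1674 and 1698 to 1286, 1191 and 1250 CPM (log2 fold change -0.45 ± 0.032). Lama5 still made up 91.3% to 92.1% of alpha chain TPM in knockout, against 96.8% to 97.1% in wild type. The gamma chain gene of the set changed little beside these. Lamc1, which pairs with Lamb1, had 588, 602 and 601 CPM in wild type against 575, 560 and 572 CPM in knockout, a change of -0.07 ± 0.03 on the log2 scale that only just passed (adjusted p = 0.04). That call was lost with DESeq2 (adjusted p = 0.0564), without either of wild-type replicates 2 and 3 and without either of knockout replicates 1 and 2. Over 12 within-library shares of chains or enzymes, those of type IV and type VI collagen, the laminins, the lysyl hydroxylases and the lysyl oxidases, an exact two-sided permutation test gave p = 0.1 each time (0.1 after Benjamini-Hochberg adjustment), the smallest value that 3 against 3 libraries allow.

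The promoter windows of Lamb1 (chr12:31265043-31265342, plus strand) and of Lamb3 (chr1:193301744-193302043, plus strand, 1 of 2 windows listed) are shown because these paralogous chains moved in opposite directions. Capitals mark the same GC and CCAAT boxes.
Lamb1: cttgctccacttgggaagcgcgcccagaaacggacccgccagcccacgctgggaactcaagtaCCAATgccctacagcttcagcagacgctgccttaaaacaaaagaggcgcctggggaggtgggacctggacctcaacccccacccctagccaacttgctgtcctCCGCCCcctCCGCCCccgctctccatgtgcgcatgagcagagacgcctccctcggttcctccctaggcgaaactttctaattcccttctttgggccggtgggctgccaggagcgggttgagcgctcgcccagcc
Lamb3: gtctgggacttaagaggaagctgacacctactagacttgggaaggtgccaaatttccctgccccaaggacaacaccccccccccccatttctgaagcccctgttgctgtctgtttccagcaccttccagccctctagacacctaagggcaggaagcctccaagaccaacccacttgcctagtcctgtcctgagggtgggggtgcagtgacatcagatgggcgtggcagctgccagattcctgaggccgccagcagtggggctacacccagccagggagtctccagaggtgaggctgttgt
The Lamb1 window held 2 GC boxes and 1 CCAAT box, and the Lamb3 window held neither, so it has no capitals.

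The linkers and proteoglycans of the basement membrane also parted ways. Hspg2, which encodes perlecan, a large heparan sulphate proteoglycan, fell from 1251, 1236 and 1230 to 824, 795 and 814 CPM (log2 fold change -0.61 ± 0.03). Agrn, which encodes agrin, another heparan sulphate proteoglycan, rose from 620, 604 and 617 to 851, 831 and 840 CPM (log2 fold change 0.45 ± 0.03, adjusted p = 1.5e-13). Per length the order of these genes turned over: Hspg2 and Agrn stood at 358 ± 4.72 and 282 ± 3.79 TPM in wild type and at 203 ± 4.48 and 334 ± 6.99 TPM in knockout (SD, n = 3 each). Nid1, the nidogen that bridges laminin and type IV collagen, was low and fell from 95, 97 and 91 counts to 11, 13 and 19 (log2 fold change -2.55 ± 0.198). Its relative Nid2 had at most 1 count in any library.

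Among the 9 genes of glycoproteins and biglycan, 4 fell, 3 rose, 1 was not called and 1, Fbln1, was too low to test, with 1, 0 and 1 counts in wild type and 1, 0 and 5 in knockout. Of the 8 tested 50% fell and 37.5% rose, shares near the 40.9% and 41.3% of all tested genes. Their median was -0.66 on the log2 scale. Tnc (chromosome 4, 63959785 to 64047015), which encodes tenascin C, a glycoprotein of remodelling and tumour stroma, had the deepest fall of the set, from 42.7, 47.2 and 43.4 CPM to 2.31, 2.06 and 2.45 CPM. That is 19.5-fold (log2 fold change -4.28 ± 0.098, adjusted p = 1.14e-23). Fbln2, a fibulin of elastic fibres and basement membranes, went from 935, 903 and 926 to 270, 260 and 270 CPM (log2 fold change -1.79 ± 0.032). Thbs1, thrombospondin, a matrix protein that activates latent TGF-beta and limits vessel growth, went from 265, 275 and 281 to 133, 129 and 133 CPM (log2 fold change -1.06 ± 0.036). The knockout libraries lay close together in all 3 genes. Sparc, a collagen-binding protein, had a smaller change, from 322, 315 and 332 to 267, 268 and 276 CPM (log2 fold change -0.26 ± 0.033), and was not called against a minimum change of 1.2-fold.

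Spp1 rose in knockout. It had 980, 1009 and 991 CPM in wild type against 1404, 1331 and 1337 CPM in knockout (log2 fold change 0.45 ± 0.031, adjusted p = 3.5e-13). At 2568 ± 41.8 and 3040 ± 121 TPM (SD, n = 3 each) it was the most abundant gene of the set in both groups. Another gene model, Gm42793, covers 18.8% of its exon bases on the same strand, which makes its count less certain. Postn, periostin, and Bgn, biglycan, were both low and called higher. Postn had 17, 19 and 20 counts in wild type and 37, 64 and 82 in knockout (log2 fold change 1.86 ± 0.265). Bgn had 17, 18 and 41 counts in knockout and 1 in every wild-type library, a ratio of pooled counts of 28.3 (exact 95% interval 9.33 to 140, counting error only). In both genes knockout replicate 3 was the highest library, and both were still called higher without it (log2 fold change 1.59 for Postn).

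Tgfbi, a TGF-beta-induced adhesion protein, had 1 knockout library far from the others. It had 88, 85 and 77 counts in wild type and 10, 5 and 48 in knockout replicates 1 to 3. With all libraries the difference was not called (log2 fold change -1.82 ± 0.659, adjusted p = 0.0546). Without knockout replicate 3 the fall was called (log2 fold change -3.29, edgeR adjusted p = 4.46e-14). Of the other alternatives 6 also gave a call of lower, among them upper-quartile factors (adjusted p = 0.0428) and the fit without knockout replicate 2 (adjusted p = 0.0466).

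The modifying enzymes changed in both directions. Of the 7 genes 4 fell, 2 rose and 1, Lox, was too low to test. Of the 6 tested 66.7% fell and 33.3% rose, beside 40.9% and 41.3% of all tested genes. The lysyl hydroxylases split. Plod2 (chromosome 9, 92542223 to 92608428), the enzyme that hydroxylates lysines in collagen telopeptides, had 218, 221 and 217 CPM in wild type against 52.1, 52.2 and 47.6 CPM in knockout (log2 fold change -2.11 ± 0.042, adjusted p = 4.41e-25). Plod1, which acts on lysines of the helix, fell from 73.4, 73.8 and 78.4 to 49.4, 52.8 and 53 CPM (log2 fold change -0.54 ± 0.048). Plod3, which also adds sugars to hydroxylysine, rose from 146, 144 and 143 to 206, 197 and 218 CPM (log2 fold change 0.52 ± 0.038). Plod2 had been the leading enzyme per length, with 48.2% to 49% of Plod TPM in wild type, and held 13.6% to 15.8% in knockout. Plod3 moved from 37.9% to 38.6% of that sum to 71.4% to 74.3%. The protein-coding gene Znhit1 covers 11.7% of the Plod3 exon bases on the opposite strand, and with the strand setting unknown reads there cannot be assigned to either gene.

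Serpinh1 (chromosome 7, 99345376 to 99353239), which encodes the collagen chaperone HSP47, rose from 461, 471 and 493 to 764, 769 and 834 CPM (log2 fold change 0.73 ± 0.036, adjusted p = 2.64e-16). It was the most abundant of the 7 modifying genes, at 828 ± 23.8 TPM in wild type and 1191 ± 38.3 TPM in knockout (SD, n = 3 each). The lysyl oxidases of the set were low. Loxl1 went from 103, 93 and 81 counts to 22, 13 and 35 (log2 fold change -1.82 ± 0.216). Loxl2 had 16, 12 and 14 counts in wild type and 0, 1 and 1 in knockout, a ratio of 18.8 in favour of wild type (exact 95% interval 4.89 to 160). Lox itself had no count in wild type and 1, 2 and 6 counts in knockout, 3.35 times the floor after scaling. Its highest count was in knockout replicate 3, the library with the most marker RNA of lung, endothelium and several other cell types. Loxl4, a relative on the wider list, supplied most lysyl oxidase RNA, with 89.4% to 91% of the family's TPM in wild type and 86.4% to 88.8% in knockout, and fell 1.52-fold.

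In knockout replicate 3 the low genes stood apart from the abundant ones. For the 25 tested genes whose higher group averaged 10 CPM or more, levels in that library were 0.869 to 1.12 times the mean of knockout replicates 1 and 2. Among the other 9 tested genes that ratio was at least 1.5 in 8, all but Col12a1, and reached 6.45 in Tgfbi. Some of these ratios rest on few counts, such as 0, 1 and 1 in Loxl2 and 4, 5 and 8 in Col6a2. How often other low genes passed 1.5 was not counted, so this does not set the matrix genes apart. Among the 8 untested genes 6 had their highest count in knockout replicate 3, Lama4 with only 2 counts there. Ratios were 14.3 for Col3a1 and 9.49 for Col1a2, beside 3.8 for the summed lung epithelial markers and 5.22 for the summed endothelial markers. Those of the smooth muscle, red blood cell, leukocyte and fibroblast marker sums were 3.66, 2.66, 1.1 and 0.936. The leukocyte and fibroblast sums were mostly Cd68 and Pdgfra. Without Cd68 the leukocyte markers held 34, 52 and 294 counts in knockout replicates 1 to 3. Without Pdgfra the fibroblast markers held 11, 5 and 38. Without knockout replicate 3, 24 matrix genes were lower and 10 higher. The part of RNA from other cell types in the low genes was not tested. The fold changes of the 25 abundant genes moved by at most 1.05 times without knockout replicate 3. Knockout replicates 1 and 2 held lung marker RNA too, at 42.6 and 49.4 CPM. Leaving out replicate 3 therefore cannot show what such RNA adds to the knockout group.

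**Figure D4:**
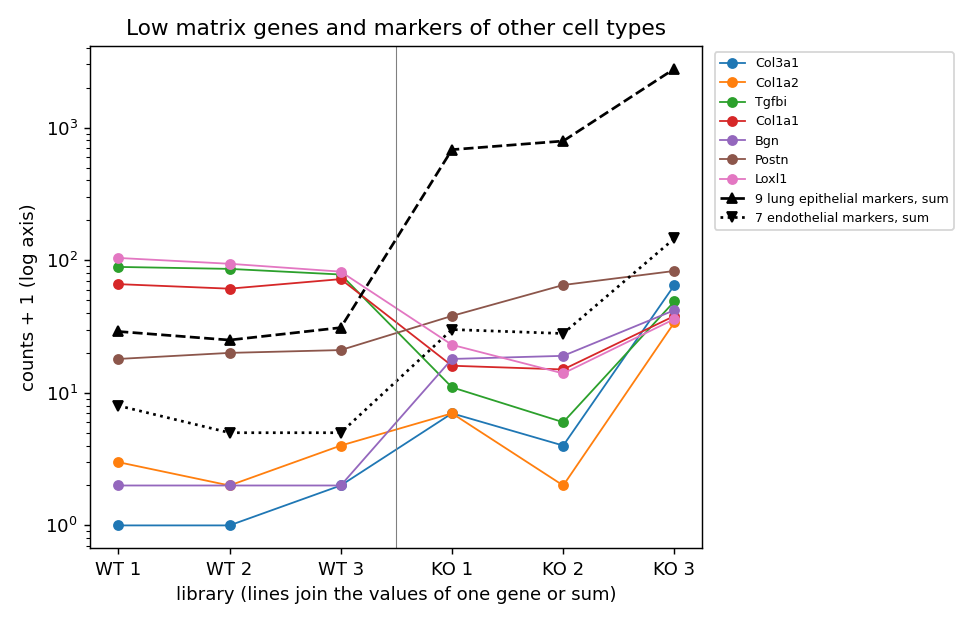
Counts plus 1, on a log axis, of 7 low matrix genes (colours), of the sum of 9 lung epithelial markers (black, dashed) and of the sum of 7 endothelial markers (black, dotted) in wild-type (WT) and knockout (KO) libraries. In knockout replicate 3 both marker sums are at their highest, and Col3a1, Col1a2 and Tgfbi stand at 64, 33 and 48 counts, against 3, 1 and 5 in knockout replicate 2.

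In 5 wider lists of matrix genes the counts are read beside the 40.9% of all tested genes that were called lower and the 41.3% called higher, or 50.7% and 31.7% on log2(TPM + 1). Of 29 other collagen chains 6 were tested, and 4 fell and none rose. They were low genes: Col14a1 had 50 counts over wild type and 1 over knockout (ratio 44.7, exact 95% interval 7.67 to 1800), and log2 fold changes were -1.67 for Col17a1, -1.95 for Col11a2 and -1.46 for Col27a1. Of 13 other basement membrane genes 5 were tested, and 4 fell and none rose. Among the falls were the peroxidase gene Pxdn that crosslinks type IV collagen (2.57-fold), the netrin gene Ntn4 (9.31-fold) and the nephronectin gene Npnt (1.81-fold). Of 8 receptors outside the integrins 7 fell and 1 rose. The syndecan gene Sdc4, the hyaluronan receptor gene Cd44 and the dystroglycan gene Dag1 fell 2.39-fold, 2.20-fold and 1.85-fold, and the collagen receptor gene Ddr2 rose 1.65-fold.

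Collagen processing genes were split, as the modifying enzymes were. Of 27 listed 21 were tested, 11 fell (52.4%), 8 rose (38.1%) and 2 were not called, shares near those of all tested genes. P4ha2, a catalytic subunit of collagen prolyl 4-hydroxylase, had 378, 360 and 379 counts in wild type and 0, 3 and 6 in knockout (log2 fold change -6.74 ± 0.216, adjusted p = 3.02e-20). P3h4, which works with lysyl hydroxylase on collagen, had 91, 87 and 91 counts against 1 in each knockout library, a ratio of 80.2 (exact 95% interval 27.2 to 391). Bmp1, the protease that trims procollagen, fell 2.58-fold. Of 40 other glycoproteins and proteoglycans 16 were tested, 11 fell, 3 rose and 2 were not called. Among the falls were Ccn2 (7.88-fold) and Ccn1 (2.66-fold), matricellular proteins, Ltbp3 (2.57-fold), which holds latent TGF-beta in the matrix, and Tnxb (34-fold), tenascin X.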

How the data were processed

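RNA came from 3 wild-type and 3 Lyplal1 knockout libraries, prepared from Trizol extracts for DNBseq, per the labels' protocols. STAR 2.7.8a, featureCounts 2.0.1 and GRCm38 are listed in the submitters' processing notes. Settings not given in the sources used here include strand handling. Deposited by the authors were whole-number counts and TPM for 55487 genes. TPM served for levels between genes and as an alternative. Symbols, positions and exon lengths are those of GENCODE M21 (GRCm38), matched for 55227 identifiers. Promoter windows are from RefSeq (GRCm38.p6).

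Counts were tested with edgeR 4.0.16 in R 4.3.3 (filterByExpr, TMM factors, robust quasi-likelihood F test, two-sided), with Benjamini-Hochberg adjustment over the 13022 tested genes and a threshold of 0.05. Changes are given for knockout relative to wild type. Each SE was derived from the change and the F value of its test. A gene with no count in 1 group gets a ratio of scaled pooled counts against a floor of 3 counts set for that group. This ratio takes the other group's count as seen, carries no interval and is no strict lower bound. A gene with 1 to 3 counts in 1 group gets a ratio of scaled pooled counts with an exact 95% interval, which covers counting error only. The gene set and all lists were chosen with earlier results of these data known. Values in every library are printed for called genes whose higher group averages 10 CPM or more, other genes are given by level or count and call, and wider lists by up to 4 called genes of smallest adjusted p, of which 1 is not reported here.

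On simulated counts for 13022 genes, 200 of them changed, 85% of the 1.5-fold changes and 89% of the 2-fold changes were recovered. There 9 unchanged genes were called. In the data 82.3% of tested genes were called, far more than were changed in the simulation. These rates therefore do not describe a comparison in which most genes move. Tried as well were RLE and upper-quartile factors, DESeq2 1.42.0, limma 3.58.1 (voom, and log2 TPM with pseudocounts of 1 and 0.1), no filter and a filter of 1 CPM in 3 libraries, a 1.2-fold minimum change, a block on replicate number, leaving out each library and, chosen after seeing the data, offsets by exon length.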

Additional observations from a re-analysis of the deposited data

How the results depend on the processing

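The count of matrix genes lower in knockout was 23 and ran from 19 to 25 over all alternatives run, and the count higher was 9 and ran from 9 to 12. Leaving out 1 library at a time gave 22 to 24 lower and 9 or 10 higher. DESeq2 and the fit with no filter gave 12 higher, and both took in genes under the filter (27543 genes against 13022). The replicate numbers were not found to pair the libraries, with correlations of same-numbered deviations of -0.00742, 0.0416 and 0.0132, and the replicate block gave 23 lower and 9 higher, with 10798 genes called in all against 10711. Over 577 values of single genes, 554 kept their direction and their side of the threshold, 10 lost the call (4 genes), 9 gained it (2 genes) and 4 turned direction (2 genes). Col4a1 turned with upper-quartile factors (-0.0863), on log2(TPM + 1) (-0.16) and on log2(TPM + 0.1) (-0.16), and Lamc1 with offsets by exon length (0.0129, adjusted p = 0.695). The scaling itself shifts all genes under the first 3 of these settings. Col4a1 was also called higher without knockout replicate 3 (0.06) and with the length offsets (0.13). Tgfbi was called lower under 7 alternatives. Leaving out knockout replicate 3 moved the fold by over 1.5 times for Col1a1 and Tgfbi, and no other library did so for any tested matrix gene. The 8 untested genes had at most 3 counts in a wild-type library and at most 6 in knockout replicates 1 and 2. In knockout replicate 3 Col3a1 and Col1a2 reached 64 and 33 counts.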
